A study of Arabidopsis thaliana with 16 samples.

Results

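Mature dry seeds of 2 Arabidopsis thaliana single mutants, brm-3 and dog1-4, were compared directly, gene by gene, with no Col-0 library in the contrast. Members were the 4 libraries labelled brm-3 and the 4 labelled dog1-4, 8 of the 16 libraries of the series, and every gene with enough counts was tested. brm-3 is a T-DNA insertion line of BRM that was used because a null allele is sterile, dog1-4 is an insertion line of DOG1, and both were compared by the study with the wild type Col-0 and with brm-3dog1-4, the double mutant. All plants grew in soil in a greenhouse under long days, with no treatment, and seeds were kept in paper bags after harvest. Each mutation was represented by 1 line, so an effect of the gene and an effect of the line cannot be told apart.

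DOG1 is a regulator of seed dormancy. It accumulates during seed maturation, sets how deeply a seed is dormant at harvest and acts together with abscisic acid (ABA), the hormone that maintains dormancy and drives the expression of storage and desiccation protectants in late embryogenesis. BRM is an ATPase of the SWI/SNF complex, which moves or evicts nucleosomes. A direct contrast of both single mutants asks which transcripts separate seeds carrying the brm-3 insertion from seeds carrying the dog1-4 insertion.

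RNA was measured by 3′RNA-Seq, in which reads come from the 3′ ends of polyadenylated transcripts and are counted per gene. Total counts were 1627347 to 2031600 in the brm-3 libraries and 803578 to 1516604 in the dog1-4 libraries, so the dog1-4 libraries were the shallower ones, and dog1-4 replicate 2 had the fewest counts of the series. A floor of 3 counts lay between 1.75 and 2.03 CPM in brm-3 and between 1.84 and 3.83 CPM in dog1-4 (CPM, counts relative to library size after TMM scaling). In a principal component analysis of the 8 libraries, component 1 held 39.6% of the variance and separated the genotypes, and component 2 held 14.5% and set dog1-4 replicate 2 apart from the other 3 dog1-4 libraries. Embryo markers were abundant in all 8 libraries, since the 14 storage protein and oil body genes summed to between 137213 and 178147 CPM in brm-3 and between 127819 and 176612 CPM in dog1-4. Chloroplast genes took 0.218 to 0.406% of the counts in brm-3 and 0.369 to 0.493% in dog1-4, and mitochondrial genes 0.541 to 0.815% and 0.294 to 0.549%. Of the 5 endosperm markers only EPR1 had enough counts to be tested, and it was not called (log2 difference -0.10 ± 0.12 SE, adjusted p = 0.63). Of the 11 seed coat markers only SBT1.7 had enough counts to be tested (0.11 ± 0.11 SE, adjusted p = 0.58). In whole seeds, fewer cells of a type and less RNA per cell cannot be told apart. The study describes replicates as pools of several plants for other assays, but neither its methods nor the labels state this for these libraries, so the p-values measure the spread between these libraries.

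Of 10251 tested genes, 537 were called between the genotypes (5.24% of the tested genes, edgeR's quasi-likelihood test, adjusted p under 0.05 and an absolute log2 difference over 1). Of these, 234 were higher in brm-3 (2.28%) and 303 were higher in dog1-4 (2.96%). Differences are given throughout as log2 of brm-3 over dog1-4, so positive values mean a higher level in brm-3. The median size of the called differences was 1.43 among genes higher in brm-3 and 1.401 among those higher in dog1-4. The median of the mean count over the 8 libraries was 23.9 for genes higher in brm-3, against 12.8 for genes higher in dog1-4 and 24.9 for all tested genes. In 467 of the 537 called genes the CPM values of the 4 brm-3 and the 4 dog1-4 libraries did not overlap, and such separation was seen in 17.7% of all tested genes. Without any fold threshold, 1684 genes had an adjusted p under 0.05 (16.4%), 823 higher in brm-3 (8.03%) and 861 higher in dog1-4 (8.4%). With only the 8 libraries in the fit, 8737 genes were tested and 420 were called, 189 higher in brm-3 and 231 higher in dog1-4. Scaling by library size alone, with no TMM factors, moved the median of all genes by -0.20 and gave 160 genes higher in brm-3 and 521 higher in dog1-4, so the split between the directions depended on the scaling.

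**Figure D1:**
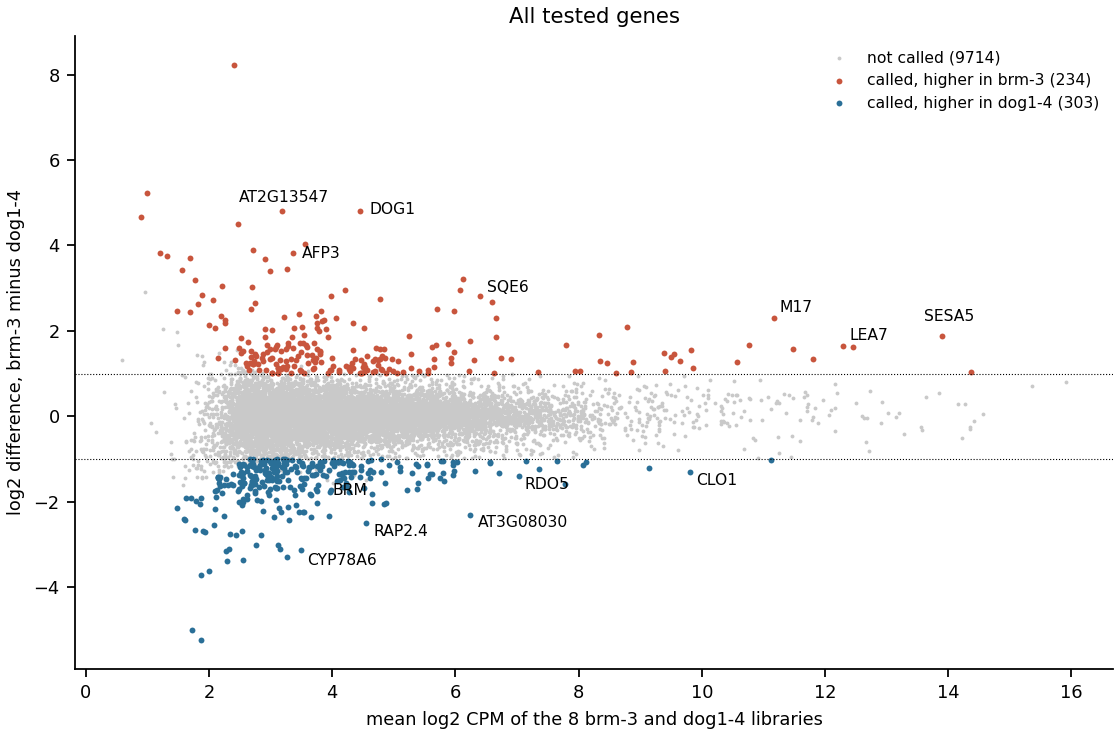
Each point is 1 of the 10251 tested genes, plotted by its mean log2 CPM over the 8 libraries (horizontal axis) and its log2 difference brm-3 minus dog1-4 (vertical axis), with dotted lines at a log2 difference of 1 and -1. Above a mean log2 CPM of about 10, most called genes lie on the brm-3 side, among them SESA5, LEA7 and M17.

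The mutated genes separated the groups as labelled. DOG1 was at 98.3, 125, 92.6 and 101 CPM in the 4 brm-3 libraries and at 3.72, 2.58, 2.44 and 5.34 CPM in the 4 dog1-4 libraries. The groups did not overlap, and the log2 difference was 4.81 ± 0.23 (SE, adjusted p = 1.5e-24). In Col-0 the DOG1 level was 100.3 ± 15.2 CPM (SD, n = 4), which lies in the range of the brm-3 libraries. BRM reads were at 18.4, 9.10, 8.96 and 10.6 CPM in brm-3 and at 30.4, 27.1, 23.62 and 42.7 CPM in dog1-4, again without overlap (-1.43 ± 0.23 SE, adjusted p = 3.3e-06). BRM reads therefore remained in brm-3, and where they lie relative to the insertion cannot be read from a count per gene.

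Called genes whose groups did not overlap and whose mean count reached 20 numbered 131 in the brm-3 direction, and the 12 with the largest differences besides DOG1 were described in full. The first, AT2G13547, encodes an uncharacterized protein and was at 36.2, 51.6, 32.3 and 25.9 CPM in brm-3 against 1.24, 1.29, 2.44 and 0 CPM in dog1-4 (4.82 ± 0.38 SE, adjusted p = 1.8e-15). Its level in Col-0 was 2.699 ± 1.16 CPM (SD, n = 4), near that of dog1-4. AFP3, an ABI5-binding protein that restrains ABA signalling, showed the opposite position of Col-0. AFP3 was at 34.1, 25.5, 37.6 and 32.3 CPM in brm-3 and at 3.72, 2.58, 0.815 and 1.53 CPM in dog1-4 (3.81 ± 0.39 SE, adjusted p = 1.5e-09), with 27.5 ± 5.05 CPM in Col-0 (SD, n = 4). Every brm-3 library was above every dog1-4 library in both genes, as the rule of choice required.

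WOX2, a homeobox factor of the early embryo, was at 15.704, 36.4, 23.3 and 32.9 CPM in brm-3 and at 2.48, 1.29, 2.44 and 3.05 CPM in dog1-4 (3.45 ± 0.33 SE). LTI78, also known as RD29A and widely used as a marker of ABA and cold responses, was at 197, 182, 165 and 186 CPM in brm-3 and at 23.0, 25.8, 20.4 and 25.2 CPM in dog1-4 (2.96 ± 0.17 SE, adjusted p = 9.4e-16). SQE6, of the squalene monooxygenase family that feeds sterol synthesis, was at 229, 202, 229 and 227 CPM in brm-3 and at 31.7, 24.5, 35.02 and 32.1 CPM in dog1-4 (2.82 ± 0.14 SE, adjusted p = 1.5e-24). For LTI78 and SQE6, Col-0 lay between the mutants, with 63.3 ± 5.42 CPM and 89.6 ± 8.25 CPM (SD, n = 4).

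A chitinase family gene, AT2G43590, was at 261, 299, 216 and 200.4 CPM in brm-3 and at 32.9, 32.3, 52.9 and 33.6 CPM in dog1-4 (2.68 ± 0.27 SE, adjusted p = 9.2e-06). AT5G05965, annotated as a cell wall RBR3-like protein, was at 213, 166, 240.1 and 206 CPM and at 21.7, 28.4, 24.4 and 16.8 CPM in the same order (3.21 ± 0.43 SE). AT1G24580, a RING/U-box protein, differed by 2.96 ± 0.23, AT1G64795, an uncharacterized protein, by 2.82 ± 0.30, and AT3G12955, a SAUR-like protein, by 2.51 ± 0.16 (SE). The brm-3 libraries of AT1G24580 were nearly equal, at 46.4, 45.5, 49.0 and 45.3 CPM.

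The glutathione transferases GSTF7 and GSTF6 varied widely among the brm-3 libraries. GSTF7 was at 37.6, 64.9, 17.3 and 69.4 CPM in brm-3 and at 5.59, 2.58, 0 and 2.29 CPM in dog1-4 (4.03 ± 1.14 SE, adjusted p = 0.029). GSTF6 was at 51.2, 86.1, 43.6 and 105 CPM in brm-3 and at 14.3, 7.74, 7.33 and 11.5 CPM in dog1-4 (2.74 ± 0.69 SE, adjusted p = 0.015). The call of GSTF7 was lost when any of 6 of the 8 libraries was left out, with log2 differences between 3.63 and 4.91. The 2 genes are similar neighbours on chromosome 1, and how the counting split reads between them is uncertain. In brm-3dog1-4 they were higher still, at 312 ± 195 CPM for GSTF7 and 391 ± 197 CPM for GSTF6 (SD, n = 4).

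The gene with the largest fitted difference fell outside this rule because of its low counts, and was picked after its values were seen. CSLG2 (AT4G24000), a cellulose synthase-like gene, had 33, 27, 37 and 50 counts in the brm-3 libraries and 0 in all 4 dog1-4 libraries. Against a floor of 3 counts per dog1-4 library, its mean of 22.6 ± 5.32 CPM in brm-3 (SD, n = 4) was at least 8.73-fold higher.

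Promoters were examined because ABA acts on many seed genes, LTI78 among them, through a known promoter element. The core of the ABA response element, ACGTG, was searched on both strands from 250 bases before to 50 after the annotated start of each gene. It was found in 119 of the 234 genes higher in brm-3 (50.9%), in 83 of the 303 higher in dog1-4 (27.4%) and in 2976 of the 10181 tested genes with a promoter sequence (29.2%). The longer form ACGTGTC was in 17.1%, 4.29% and 6.60% of these sets in the same order, and the G-box CACGTG, which contains the core, in 25.6%, 7.26% and 10.7%. CATGCA, the core of the RY element bound by B3 factors of seed maturation, was in 17.5%, 12.5% and 7.46%. The telo-box AAACCCTA and the element TGGGCC, known from promoters of ribosomal protein genes, were in 1.71%, 5.28% and 6.52% and in 12.4%, 13.2% and 23.4%. The W-box forms TTGACT and TTGACC were in 28.2%, 17.5% and 20.8% and in 12.4%, 13.9% and 14.5%. GCCGCC was in 3.42%, 1.32% and 3.00%, and GAANNTTC, of heat shock elements, in 10.7%, 8.91% and 11.0%. In the 250 bases before the start alone, 4 of these shares were lower by over 1.5 times, for genes higher in dog1-4 GCCGCC (0.660%), ACGTGTC (2.64%) and CACGTG (4.62%), and for all tested genes AAACCCTA (4.02%). LTI78 itself had no match to ACGTG on either strand in the 250 bases before its start. A match is a description of the sequence and not a bound site.

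Promoters of 5 of the named genes with the core within the 250 bases before the start are shown. They let the arrangement of the core be seen in both directions of the contrast, and were picked for having it. Apart from 1 promoter not reported here, the rest of the 12 named genes in each direction had no core in this window. These 5 sequences, from RefSeq on TAIR10.1, are shown 5′ to 3′ on the strand of the gene, ending at the base before its start, with each match to ACGTG or its reverse complement CACGT in capitals. The first 3 belong to genes higher in brm-3 and the last 2 to genes higher in dog1-4. AFP3 carries 4 separate G-boxes (chr3:11384146-11384395, minus strand), AT5G05965 carries 3 (chr5:1792635-1792884, minus strand), and AT1G24580 has 3 cores of which 1 is a G-box (chr1:8709691-8709940, plus strand). CYP71B37 (chr3:9648659-9648908, minus strand) and HIRD11 (chr1:20310851-20311100, minus strand) have 1 core each and no G-box.
AFP3: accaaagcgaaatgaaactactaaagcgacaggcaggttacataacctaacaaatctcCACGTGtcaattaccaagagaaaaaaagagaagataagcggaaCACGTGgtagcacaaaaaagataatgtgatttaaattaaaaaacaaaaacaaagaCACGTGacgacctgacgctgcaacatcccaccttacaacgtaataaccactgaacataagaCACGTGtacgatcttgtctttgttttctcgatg
AT5G05965: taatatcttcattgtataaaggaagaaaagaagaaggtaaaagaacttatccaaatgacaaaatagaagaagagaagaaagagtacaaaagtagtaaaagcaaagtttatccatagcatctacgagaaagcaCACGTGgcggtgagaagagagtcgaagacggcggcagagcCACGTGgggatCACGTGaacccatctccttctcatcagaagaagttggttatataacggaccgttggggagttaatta
AT1G24580: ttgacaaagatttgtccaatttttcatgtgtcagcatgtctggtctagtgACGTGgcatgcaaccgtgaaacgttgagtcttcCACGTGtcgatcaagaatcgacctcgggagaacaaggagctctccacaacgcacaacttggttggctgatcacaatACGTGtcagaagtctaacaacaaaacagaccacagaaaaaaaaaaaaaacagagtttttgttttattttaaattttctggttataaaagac
CYP71B37: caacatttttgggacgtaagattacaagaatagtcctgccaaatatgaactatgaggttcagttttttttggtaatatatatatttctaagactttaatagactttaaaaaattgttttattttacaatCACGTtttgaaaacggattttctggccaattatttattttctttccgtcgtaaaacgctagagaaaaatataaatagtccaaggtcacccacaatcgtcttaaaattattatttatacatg
HIRD11: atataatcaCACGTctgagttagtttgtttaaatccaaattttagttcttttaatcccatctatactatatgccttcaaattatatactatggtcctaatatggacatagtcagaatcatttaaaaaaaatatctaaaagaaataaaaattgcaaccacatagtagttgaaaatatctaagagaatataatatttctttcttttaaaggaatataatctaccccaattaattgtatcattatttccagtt

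In the other direction, the same criteria left 91 genes higher in dog1-4. The most different was CYP78A6, a cytochrome P450 known to promote seed growth, at 2.73, 5.46, 2.39 and 2.35 CPM in brm-3 and 27.3, 21.9, 35.8 and 29.0 CPM in dog1-4 (-3.13 ± 0.27 SE, adjusted p = 4.7e-14). Col-0 was at 15.5 ± 1.79 CPM and brm-3dog1-4 at 3.33 ± 0.820 CPM (SD, n = 4), so the double mutant stood with brm-3. RAP2.4, an AP2/ERF-type transcription factor, was at 8.88, 7.28, 7.76 and 13.5 CPM in brm-3 and at 57.7, 42.6, 48.9 and 60.3 CPM in dog1-4 (-2.50 ± 0.20 SE, adjusted p = 1.3e-15). Here Col-0 was at 7.45 ± 0.765 CPM and brm-3dog1-4 at 41.6 ± 8.59 CPM (SD, n = 4), and the double mutant stood with dog1-4.

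In the next pair of genes the double mutant again stood with dog1-4. AT3G08030, a DUF642 protein, was at 28.7, 32.2, 32.3 and 41.1 CPM in brm-3 and at 166, 201, 182 and 123 CPM in dog1-4 (-2.30 ± 0.15 SE, adjusted p = 2.2e-17). DPE2, a glucanotransferase of maltose metabolism, was at 5.46, 4.85, 5.97 and 8.82 CPM in brm-3 and at 34.8, 31.0, 22.0 and 38.9 CPM in dog1-4 (-2.33 ± 0.25 SE). In both, Col-0 was nearer to brm-3, with 15.3 ± 3.28 CPM and 8.73 ± 2.79 CPM (SD, n = 4).

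HIRD11 (AT1G54410), a small dehydrin, was the named gene whose Col-0 level lay furthest below both mutants. It was at 9.56, 12.7, 17.3 and 11.8 CPM in brm-3, at 49.0, 34.9, 46.4 and 48.9 CPM in dog1-4 (-1.82 ± 0.19 SE, adjusted p = 1.4e-11) and at 1.11 ± 0.751 CPM in Col-0 (SD, n = 4). HSFC1, a heat shock transcription factor, was at 5.46, 7.28, 6.57 and 4.70 CPM in brm-3 and at 28.6, 21.9, 21.2 and 25.95 CPM in dog1-4 (-2.03 ± 0.24 SE). The groups did not overlap in either gene, which was a condition of their choice.

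CYP71B37 differed by -2.04 ± 0.19, the thaumatin family gene AT2G28790 by -1.77 ± 0.24, XTH28, a xyloglucan endotransglucosylase/hydrolase of the cell wall, by -1.77 ± 0.22, and the glucosyltransferase UGT75B1 by -1.73 ± 0.17 (SE). Col-0 stood with dog1-4 in CYP71B37 and AT2G28790, at 46.0 ± 3.62 and 32.6 ± 6.35 CPM, and between the mutants in XTH28 and UGT75B1, at 19.2 ± 3.11 and 38.8 ± 7.34 CPM (SD, n = 4). The remaining 2 of the 12 were RALFL9, which encodes a RALF peptide, and PYL11, an ABA receptor of the PYR/PYL family. RALFL9 was at 10.9, 17.59, 15.5 and 10.6 CPM in brm-3 and at 39.1, 69.7, 89.6 and 36.6 CPM in dog1-4 (-2.05 ± 0.44 SE, adjusted p = 0.0055).

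PYL11 was at 11.6, 19.4, 9.56 and 8.82 CPM in brm-3 and at 63.3, 40.0, 32.6 and 61.1 CPM in dog1-4 (-2.03 ± 0.37 SE, adjusted p = 0.0013). No brm-3 library reached the lowest dog1-4 library in either RALFL9 or PYL11, as the rule of choice required.

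Pollen markers moved with some of these genes. All 5 listed pollen markers were detected and tested, and their summed level was 43.7 to 61.1 CPM in brm-3, 95.6 to 250.1 CPM in dog1-4 and 49.1 to 132 CPM in Col-0. In dog1-4 the highest value belonged to replicate 3, and without it the range was 95.6 to 109 CPM. All 5 had negative log2 differences (median -1.44), and 2 were called, the arabinogalactan protein AGP11 (-1.65 ± 0.24 SE) and AT5G45880 of the Ole e 1 family (-1.44 ± 0.42 SE), whereas the pectin methylesterase VGD1 missed the threshold (-1.48 ± 0.49 SE, adjusted p = 0.056). Leaving out any brm-3 library or dog1-4 replicate 2 gave 1 call, leaving out dog1-4 replicate 1 gave 3, and DESeq2 gave 3. Without dog1-4 replicate 3 the log2 difference of RALFL9 was -1.73 (adjusted p = 0.017), that of AGP11 -1.41 and that of AT5G45880 -1.03. In the same edgeR fit PYL11 moved the other way, to -2.19 (adjusted p = 0.00036), against -2.03 with every library in. A pair of further genes chosen after their values were seen moved alike, RALFL8 (-1.56 ± 0.31 SE), the neighbour of RALFL9 with which reads may be shared, and sks13 (-1.67 ± 0.36 SE). The part of pollen RNA in the calls of RALFL9, PYL11 and the other genes higher in dog1-4 was not tested.

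**Figure D2:**
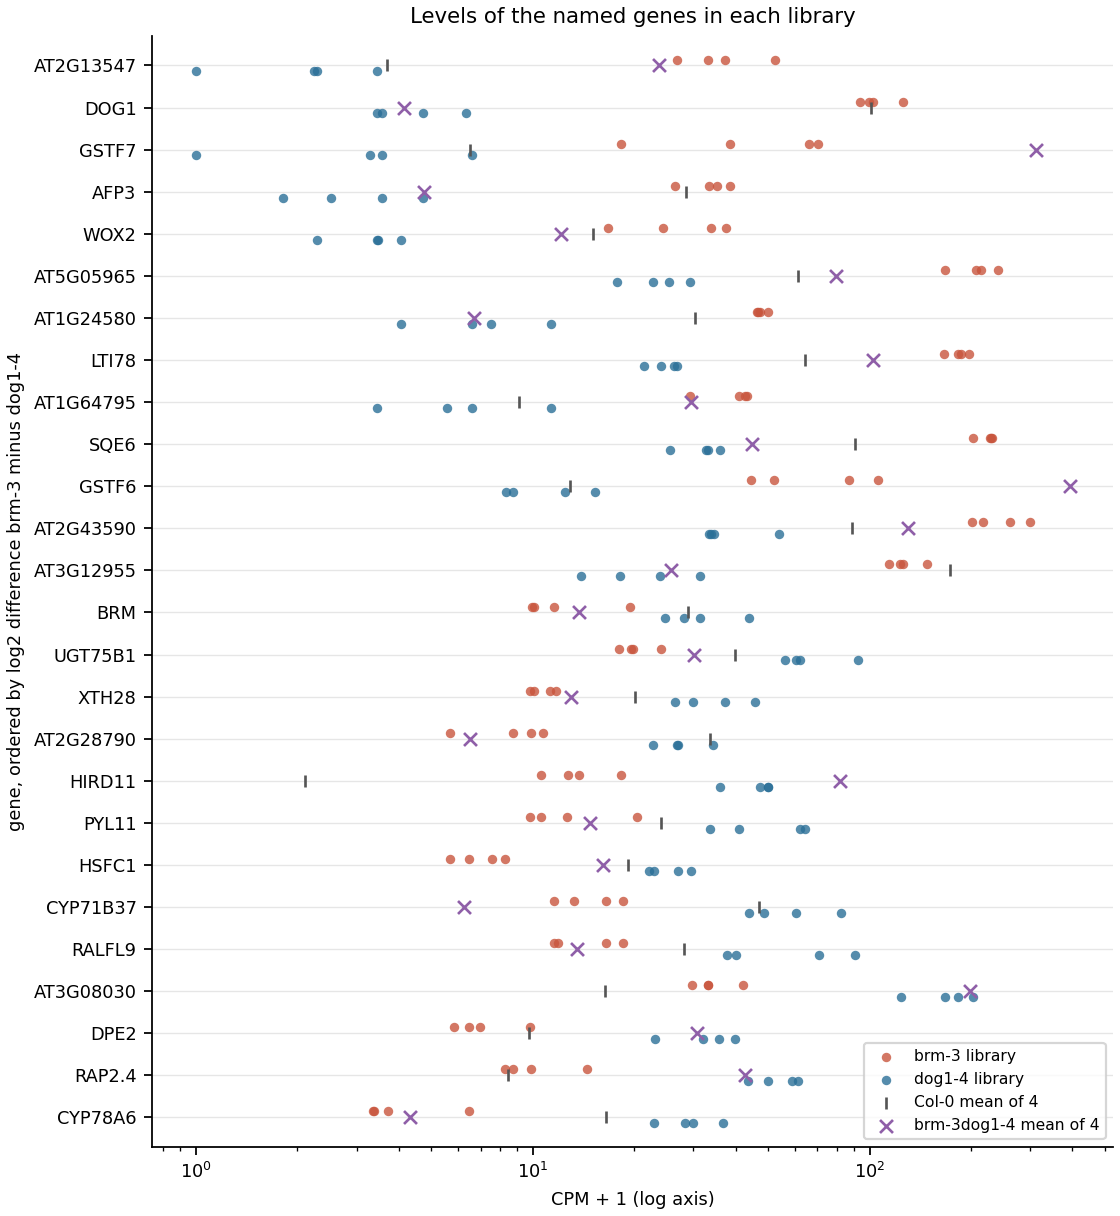
Points are the CPM + 1 of single libraries on a log axis, in brm-3 (red) and dog1-4 (blue), for DOG1, BRM and the 24 named genes ordered by log2 difference, and the grey bar and the purple cross are the means of 4 Col-0 and 4 brm-3dog1-4 libraries. The red and blue points do not overlap in any of the genes shown, which for the 24 named genes was a condition of their choice. The Col-0 mean stands with brm-3 in AFP3 and RAP2.4, with dog1-4 in CYP71B37 and between them in SQE6.

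Gene lists were then counted, to be read against the 2.28% of tested genes called higher in brm-3 and the 2.96% called higher in dog1-4. Of 14 tested dormancy and germination regulators, 3 were called. Besides DOG1, higher in brm-3, these were RDO5, a phosphatase-like promoter of dormancy, and PIF1, a bHLH repressor of germination in the dark, both higher in dog1-4. RDO5 was at 78.5, 72.8, 68.7 and 98.2 CPM in brm-3 and at 178, 218, 232 and 221 CPM in dog1-4 (-1.41 ± 0.12 SE, adjusted p = 8.2e-15). PIF1 was at 10.2, 8.49, 14.3 and 8.23 CPM in brm-3 and at 28.6, 32.3, 27.7 and 25.95 CPM in dog1-4 (-1.45 ± 0.21 SE). Col-0 stood with brm-3 in both, at 87.3 ± 12.1 CPM for RDO5 and 11.4 ± 2.56 CPM for PIF1 (SD, n = 4). MFT, a germination regulator of the PEBP family, had a log2 difference of -0.92 ± 0.13 (SE, adjusted p = 2.5e-07), under the fold threshold.

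ABA signalling genes were called in both directions, 6 higher in brm-3 and 5 higher in dog1-4 of 32 tested, with a median log2 difference of 0.27. When single libraries were left out, 5 to 7 were higher in brm-3 and 5 in dog1-4. Those higher in brm-3 were mostly restraints of the pathway, namely the ABI5-binding proteins AFP1 (2.24 ± 0.25 SE), AFP3 and AFP4 (2.13 ± 0.52 SE) and the clade A phosphatases HAI1 (2.33 ± 0.32 SE) and HAB1 (1.11 ± 0.19 SE), with the bZIP activator ABF4 (1.27 ± 0.25 SE) as the sixth. AFP1 was at 27.3, 35.8, 26.9 and 25.9 CPM in brm-3 and at 8.07, 3.87, 5.70 and 5.34 CPM in dog1-4. HAI1 was at 22.5, 15.2, 19.1 and 18.22 CPM in brm-3 and at 5.59, 2.58, 4.07 and 1.53 CPM in dog1-4. In AFP1, AFP4, HAI1, HAB1 and ABF4 the libraries did not overlap, as in AFP3, where this was a condition of its choice.

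Higher in dog1-4 were the receptors PYL2 (-2.54 ± 0.56 SE), PYL11 and PYL13 (-1.65 ± 0.29 SE), the phosphatase HAI3 (-1.29 ± 0.19 SE) and the bZIP factor ABF2 (-2.69 ± 0.41 SE). ABF2 was at 2.73, 3.03, 0.597 and 0.588 CPM in brm-3 and at 9.93, 10.3, 14.7 and 10.7 CPM in dog1-4, with few counts in brm-3. AHG1, a phosphatase that DOG1 protein binds, had an adjusted p of 1.2e-10 but a log2 difference of 0.85 ± 0.09 (SE), under the threshold. AFP2 (0.90 ± 0.16 SE) and ABI5 (0.54 ± 0.10 SE) also stayed under the fold threshold with adjusted p-values of 1.5e-05 and 4.8e-05, and ABI3 had a log2 difference of -0.31 ± 0.11 (SE, adjusted p = 0.04).

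Of 7 tested genes of ABA synthesis and catabolism, 1 was called, CYP707A2, the ABA hydroxylase of the seed. It was at 11.6, 10.9, 13.7 and 11.8 CPM in brm-3 and at 24.2, 27.1, 29.3 and 38.2 CPM in dog1-4 (-1.30 ± 0.22 SE, adjusted p = 5.4e-06), without overlap. ABA1, which acts early in ABA synthesis, had a log2 difference of 0.63 ± 0.11 (SE, adjusted p = 6.3e-06). Without brm-3 replicate 4 or dog1-4 replicate 1, 2 members were called higher in dog1-4.

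Gibberellin, the hormone that promotes germination, had 6 called genes of 13 tested, and 5 of them were higher in dog1-4. That count of 5 became 4 to 6 when single libraries were left out. GA20OX3, a biosynthetic oxidase, was at 1.37, 1.82, 3.58 and 2.94 CPM in brm-3 and at 21.7, 29.7, 14.7 and 18.3 CPM in dog1-4 (-3.01 ± 0.34 SE, adjusted p = 2.3e-10), with 0.448 ± 0.607 CPM in Col-0 (SD, n = 4), near the limit of detection. KAO2, an earlier step of synthesis, differed by -1.27 ± 0.17 (SE) and the inactivating GA2OX2 by -1.57 ± 0.44 (SE). The DELLA repressors GAI (-1.10 ± 0.25 SE) and RGL2 (-1.33 ± 0.35 SE) were also higher in dog1-4, although the libraries of RGL2 overlapped. The 1 gene higher in brm-3 was another inactivating oxidase, GA2OX6, with 11, 5, 4 and 13 counts in brm-3 and 0, 0, 2 and 0 in dog1-4. Members higher in dog1-4 thus included both synthesis and repression of the pathway.

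Late embryogenesis and storage transcripts were among the abundant called genes. Of 33 tested LEA proteins and dehydrins, which protect cells in the dry state, 6 were called higher in brm-3 and 2 higher in dog1-4, and with any fold change 21 and 2 passed an adjusted p of 0.05. Their median log2 difference was 0.48, against -0.0038 for all tested genes. LEA7 was at 8269.8, 7793, 10897 and 8961 CPM in brm-3 and at 2593, 3055, 3542 and 2331 CPM in dog1-4 (1.64 ± 0.13 SE, adjusted p = 1.7e-14). LEA4-5 was at 5292, 5036, 6303 and 6219 CPM in brm-3 and at 2137, 2467, 2448 and 1966 CPM in dog1-4 (1.34 ± 0.11 SE, adjusted p = 7.1e-15). AT3G53040 was at 3456, 2535, 2882 and 3666 CPM and 921, 895, 916 and 1189 CPM (1.68 ± 0.12 SE, adjusted p = 5.6e-16). Each of these 3 separated the groups without overlap.

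The other LEA genes called higher in brm-3 were M17 (2.302 ± 0.26 SE), AT4G36600 (1.58 ± 0.14 SE) and AT3G02480 (1.38 ± 0.16 SE). M17, a glycine-rich gene of late embryogenesis, was at 5515, 5948, 5824 and 3481 CPM in brm-3 and at 992, 1341, 1052 and 838 CPM in dog1-4. Col-0 stood with brm-3 in LEA4-5, AT3G53040, AT4G36600 and M17, with log2 differences of brm-3 from Col-0 of 0.13, 0.087, 0.012 and 0.085. In LEA7 and AT3G02480 brm-3 was above Col-0, by 0.89 and 1.05 on the log2 scale. HIRD11 and AT2G44060 (-1.08 ± 0.35 SE), whose libraries overlapped, were the 2 members called higher in dog1-4, and the call of AT2G44060 was lost without brm-3 replicate 1, 3 or 4 or dog1-4 replicate 1 or 4, and by DESeq2.

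Among 14 storage protein and oil body genes, all tested, 2 napin-type albumins were higher in brm-3 and 1 oil body gene was higher in dog1-4. SESA5 was at 27320.5, 30651, 34912 and 26837 CPM in brm-3 and at 5908, 10383, 9071 and 6966 CPM in dog1-4 (1.89 ± 0.14 SE, adjusted p = 1e-15). SESA1 was at 1183, 1612, 1933 and 1611 CPM in brm-3 and at 425, 683, 625 and 427 CPM in dog1-4 (1.56 ± 0.25 SE, adjusted p = 0.00069). SESA1 has near-identical neighbours, so its share of the reads is uncertain. CLO1, a caleosin with peroxygenase activity on oil bodies, was at 536, 554, 612 and 564 CPM in brm-3 and at 1364, 1464, 1518 and 1284 CPM in dog1-4 (-1.31 ± 0.10 SE, adjusted p = 2.2e-16). SESA5 in Col-0 was at 27258 ± 4318 CPM, with brm-3, whereas CLO1 in Col-0 was at 1301 ± 82.6 CPM, with dog1-4 (SD, n = 4).

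Of 8 tested genes of oil mobilization and cell wall loosening, only malate synthase (MLS) of the glyoxylate cycle was called, at 1552, 1503, 1648 and 1559 CPM in brm-3 and 3103, 3036, 3475 and 3198 CPM in dog1-4 (-1.03 ± 0.10 SE, adjusted p = 7.9e-13). Its partner isocitrate lyase (ICL) had a log2 difference of -0.47 ± 0.10 (SE, adjusted p = 0.00048). The MLS call lay close to the fold threshold and was lost without dog1-4 replicate 3. Of 4 tested genes of raffinose and sucrose synthesis, the stachyose synthase RS4 was called higher in dog1-4 (-1.16 ± 0.23 SE), a call lost without dog1-4 replicate 1, and SUS3 (0.53 ± 0.09 SE) and GOLS2 (0.53 ± 0.10 SE) were under the fold threshold.

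Among heat shock genes, 4 small heat shock proteins were higher in brm-3. Of 16 tested heat shock proteins and factors, 4 were called, all with higher values in brm-3, and all 16 log2 differences were positive with TMM factors (median 0.44, lowest 0.075). With no factors the median was 0.25, beside -0.20 for all genes, a shift larger than the lowest of these differences. HSP17.6B was at 86.0, 90.4, 105 and 136 CPM in brm-3 and at 36.01, 31.0, 32.6 and 29.0 CPM in dog1-4 (1.69 ± 0.18 SE, adjusted p = 8.3e-09). HSP22.0 (2.06 ± 0.61 SE, adjusted p = 0.034), HSP23.6 (1.05 ± 0.25 SE) and HSP17.8 (1.01 ± 0.25 SE) were the other 3, and the libraries of HSP17.8 overlapped. The other 7 small heat shock proteins tested had adjusted p-values from 0.089 to 0.78. Leaving out brm-3 replicate 2 or 4 or dog1-4 replicate 3 or 4 gave 2 calls. Col-0 was above both mutants in HSP23.6 and HSP22.0, at 91.5 ± 25.2 CPM and 40.6 ± 18.4 CPM (SD, n = 4). No member was called higher in dog1-4 by edgeR, with 0 at an unadjusted p under 0.05 and 0 by DESeq2. The factors on the list were HSFA2 and HSFA9, and HSFC1, which was called higher in dog1-4, was not a member.

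Genes annotated with the words ribosomal protein leaned the other way, with small differences in many genes. Of 264 tested, 15 were called higher in dog1-4, and without a fold threshold 107 were higher in dog1-4 and 3 in brm-3. Leaving out single libraries gave 10 to 22 calls. The median log2 difference was -0.44. Relative to all genes this median was -0.44 with TMM, RLE or upper-quartile factors and with none. AT3G45030, of the S10p/S20e family, was at 4.78, 11.5, 6.57 and 9.40 CPM in brm-3 and at 29.2, 25.8, 22.0 and 29.8 CPM in dog1-4 (-1.71 ± 0.24 SE, adjusted p = 7.9e-08). RPS15 (-0.98 ± 0.13 SE) and emb2171 (-0.88 ± 0.11 SE) had adjusted p-values of 4e-08 and 5.9e-09 without reaching the fold threshold. The summed level of the list was 9874 to 11363 CPM in brm-3 and 13082 to 14032 CPM in dog1-4, without overlap, and 9715 to 10454 CPM in Col-0, which stood with brm-3. No member was called higher in brm-3 by edgeR, with 6 at an unadjusted p under 0.05 and 0 by DESeq2. Members were chosen by the words of their RefSeq product, so the list also holds genes such as LOS1, an elongation factor, and eEF-1Bb1. The place of each protein in the cell was not checked, and many have near-identical copies.

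**Figure D3:**
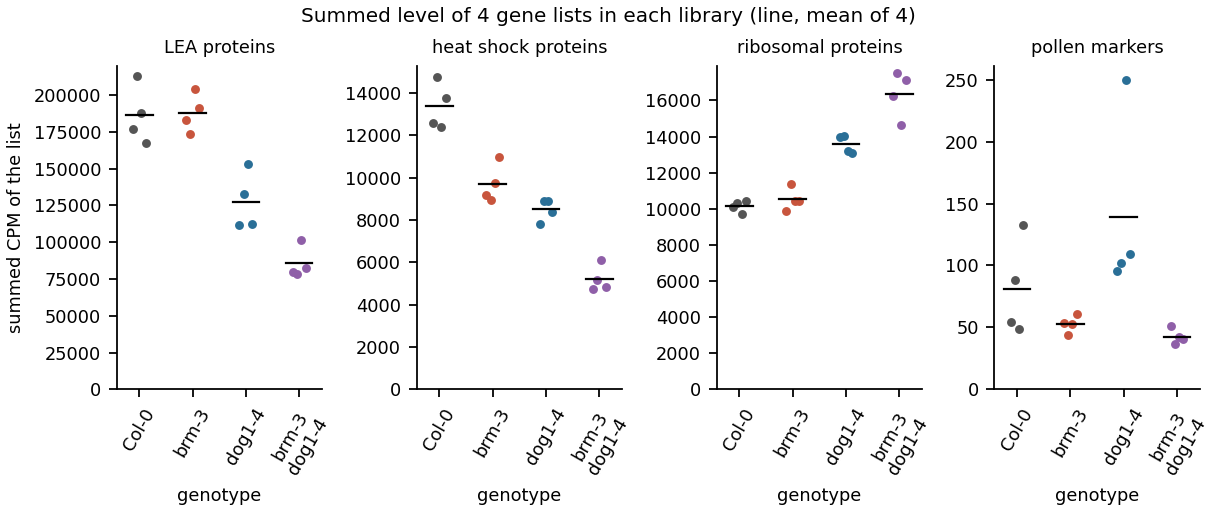
Each point is the summed CPM of a gene list in 1 library, for the 4 genotypes on the horizontal axis, with a line at the mean of 4 libraries. The LEA sums are higher in all brm-3 than in all dog1-4 libraries (lowest brm-3 173195, highest dog1-4 152820 CPM), the ribosomal sums lower, and the pollen marker sums lower, with dog1-4 replicate 3 far above the rest.

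Glutathione transferases and peroxidases had 4 called genes of 28 tested and a median log2 difference of -0.00084. Besides GSTF6 and GSTF7, GSTU12 was called higher in brm-3 with 2, 1, 3 and 12 counts, against 0 in every dog1-4 library, so its size could not be measured at this depth. GSTU13 was at 8.88, 9.71, 14.3 and 15.9 CPM in brm-3 and at 24.2, 41.3, 32.6 and 28.2 CPM in dog1-4 (-1.30 ± 0.21 SE, adjusted p = 3.1e-06). GSTF2 had a log2 difference of -0.61 ± 0.09 (SE, adjusted p = 3.3e-07), while the peroxidases GPX6 (0.50 ± 0.10 SE) and GPX1 (0.47 ± 0.12 SE) had positive differences with adjusted p-values of 0.0002 and 0.0032, all under the fold threshold. Without brm-3 replicate 1 there were 5 members called higher in brm-3, and without brm-3 replicate 3 there were 6.

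Of 14 tested antioxidant enzymes, the methionine sulfoxide reductase MSRB4 was called, at 8.88, 8.49, 9.56 and 11.2 CPM in brm-3 and 29.2, 37.4, 20.4 and 24.4 CPM in dog1-4 (-1.499 ± 0.23 SE, adjusted p = 9.4e-07). The catalase CAT1 (0.98 ± 0.12 SE, adjusted p = 2.2e-09) and MSRB1 (0.84 ± 0.15 SE) had higher levels in brm-3 that stayed under the fold threshold, and 1 member was called higher in brm-3 without brm-3 replicate 1 or dog1-4 replicate 3. Of 10 tested genes of indole glucosinolate, camalexin and auxin synthesis, 2 were called higher in brm-3. NIT2, a nitrilase, was at 121, 141, 171 and 132 CPM in brm-3 and at 47.2, 29.7, 56.2 and 29.0 CPM in dog1-4 (1.76 ± 0.20 SE, adjusted p = 7.8e-07). ASA1, of the first step of tryptophan synthesis, had 10, 5, 4 and 12 counts in brm-3 and 0, 0, 2 and 2 in dog1-4 (2.45 ± 0.67 SE), and 1 member was called without dog1-4 replicate 1.

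Among 30 tested ERF and WRKY transcription factors, 4 were called higher in brm-3 and 2 higher in dog1-4. With single libraries left out, these counts were 4 to 5 and 1 to 2. RAP2.4, an AP2/ERF-type factor called higher in dog1-4, was not on this list. WRKY33, a regulator of defence and camalexin synthesis, was at 23.9, 17.59, 14.9 and 19.98 CPM in brm-3 and at 1.86, 5.16, 4.89 and 11.5 CPM in dog1-4 (1.72 ± 0.31 SE). WRKY8 (2.64 ± 0.41 SE), WRKY75 (2.25 ± 0.53 SE) and the repressor ERF4 (1.41 ± 0.20 SE) were the others higher in brm-3. Of the ethylene response factors higher in dog1-4, ERF-1 was at 8.88, 5.46, 3.58 and 6.46 CPM in brm-3 and at 18.0, 16.8, 21.2 and 29.0 CPM in dog1-4 (-1.82 ± 0.26 SE, adjusted p = 2.2e-07), and ERF2 (-1.95 ± 0.45 SE) had overlapping libraries and lost its call without dog1-4 replicate 4. EBP, an ethylene-responsive element binding protein, had a log2 difference of -0.80 ± 0.09 (SE, adjusted p = 9e-10).

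Of 17 tested SWI/SNF subunits, 2 were called, BRM itself and BRD2, a bromodomain subunit of the BRM complex. BRD2 (AT1G76380) was at 19.8, 10.9, 14.3 and 14.1 CPM in brm-3 and at 3.10, 3.87, 4.07 and 8.40 CPM in dog1-4 (1.57 ± 0.32 SE, adjusted p = 0.00013), with 3.80 ± 1.03 CPM in Col-0 (SD, n = 4). Of 28 tested histone genes, the linker histone HIS1-3 (-1.27 ± 0.13 SE, adjusted p = 2.9e-11) and HTB1 (-1.11 ± 0.40 SE, adjusted p = 0.044) were called higher in dog1-4. The HTB1 call was lost without any 1 of the 4 brm-3 libraries or dog1-4 replicate 1 or 2, and by DESeq2. HIS1-3 was at 51.9, 50.4, 48.4 and 52.3 CPM in brm-3 and at 138, 116, 106 and 127 CPM in dog1-4. Of 10 tested nuclear photosynthesis genes, edgeR called 0, with 2 at an unadjusted p under 0.05 higher in dog1-4 and 1 higher in brm-3, and 0 by DESeq2.

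**Figure D4:**
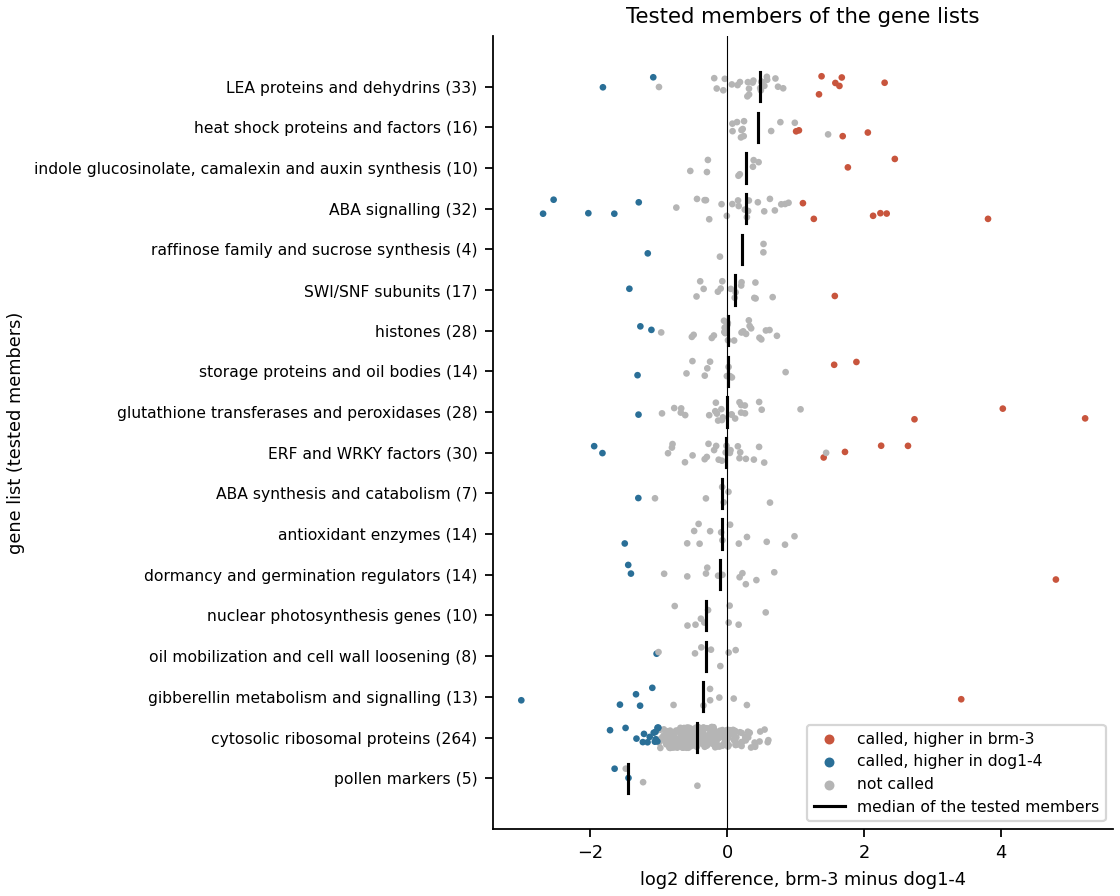
Each point is the log2 difference brm-3 minus dog1-4 of 1 tested gene, by gene list, red where called higher in brm-3, blue where called higher in dog1-4 and grey otherwise, and the black bars are medians. With TMM factors the points of the heat shock list, which does not hold HSFC1, all lie above 0. The bulk of the ribosomal points lies below 0 (median -0.44), and ABA signalling has called genes on both sides.

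The study had picked genes bound by BRM that changed in opposite directions in both single mutants, and since they were chosen on these samples their direction here is no independent evidence. Of 21 such genes up in brm-3 and down in dog1-4, 7 had enough counts to be tested and all 7 were called higher in brm-3, or 4 without brm-3 replicate 4. Of 17 in the opposite direction, 3 were tested and all 3 were called higher in dog1-4. A gene passes the filter on low counts only if at least 1 group is high, so these counts cannot be read against the background. Of 22 glutathione, indole and hormone genes named in the study's text, which do not include DOG1, BRM or other SWI/SNF subunits, 13 were tested and 4 were called, GSTU12 higher in brm-3 and GAI, RGL2 and CYP707A2 higher in dog1-4. The count higher in brm-3 was 3 without brm-3 replicate 1 or 3 or dog1-4 replicate 4, and 2 without brm-3 replicate 2 or dog1-4 replicate 1, 2 or 3. WR3, which acts in nitrate transport, was at 14.3, 18.8, 16.7 and 25.9 CPM in brm-3 and at 2.48, 1.29, 0 and 0.763 CPM in dog1-4 (3.89 ± 0.45 SE). CYP77A6, a cytochrome P450 of cutin synthesis, had 0, 0, 0 and 1 counts in brm-3 and 11, 10, 10 and 11 in dog1-4. PIN4, an auxin efflux carrier outside these lists and singled out after its values were seen, had 0, 0, 1 and 0 counts in brm-3 and 10, 5, 6 and 15 in dog1-4.

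The place of Col-0 shows which mutant departs from the wild type, as a description, since both differences share the Col-0 libraries. Over the 234 genes higher in brm-3, the median log2 difference from Col-0 was 0.33 in brm-3 and -1.13 in dog1-4, and in 160 of them the Col-0 mean was nearer to brm-3 on the log2 scale (68.4%). Over the 303 genes higher in dog1-4, the medians were -0.42 in brm-3 and 1.07 in dog1-4, and Col-0 was nearer to brm-3 in 218 (71.9%). Over all tested genes Col-0 was nearer to brm-3 in 58.7%. The double mutant was nearer to dog1-4 in 148 of the 234 genes (63.2%) and in 188 of the 303 (62.0%), and in 56.4% of all tested genes. Its mean lay between both single mutants in 128 of the 234 and in 137 of the 303, above both in 33 and 109, and below both in 73 and 57. Of all 10251 tested genes it lay between both in 2519, above both in 4100 and below both in 3632.

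By chromosome, genes higher in brm-3 made up 2.83% of the tested genes on chromosome 1 and 2.63% on chromosome 5, and between 1.83% and 1.92% on chromosomes 2, 3 and 4. Genes higher in dog1-4 made up 2.56% and 2.51% on chromosomes 1 and 5 and between 3.31% and 3.48% on the others. Within 50 tested genes on each side of DOG1, 8 of 100 were called (8%), and within 50 on each side of BRM 6 of 100 (6%), against 5.24% of all. The next tested gene after DOG1 in locus order was PYL11 and the third was AT5G45880. Log2 differences from Col-0 in dog1-4 and in brm-3dog1-4, which share the dog1-4 insertion, were 1.10 and -0.91 for PYL11. For AT5G45880 they were 0.66 and -1.23. Of the other called neighbours of DOG1, AT5G45775 (1.07 and 1.85), PTR3 (-1.84 and -1.44) and AT5G46040 (-1.71 and -1.16) kept their direction. So did WRKY8 (-1.83 and -0.99) and ERF2 (1.11 and 0.34), whereas AT5G47000 (1.06 and -0.93) did not. CYP78A6 is 32 tested genes from BRM and was low in brm-3 and in brm-3dog1-4, which share the brm-3 insertion. Whether sequence linked to an insertion had a part in these differences was not tested.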

How the data were processed

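3′RNA-Seq libraries of mature dry seeds from 4 genotypes, with 4 libraries each, were grouped by their labelled genotype. The authors deposited counts per gene that were not normalized, and the submitters' notes name STAR 2.7.8a, DESeq2 and TAIR10. The counting tool, its use of strand and of molecular identifiers were not given in the sources used here, so genes that overlap or lie antisense to each other (DOG1 and its antisense transcript included) cannot be told apart.

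The counts of all 16 libraries were fitted with edgeR 4.0.16 in R 4.3.3 (filter on low counts by genotype, which left 10251 of 37336 loci, TMM factors, robust quasi-likelihood test, contrast brm-3 minus dog1-4), and p-values were adjusted by Benjamini-Hochberg over all tested genes. Calls needed an adjusted p below 0.05 together with a log2 difference beyond 1 in either direction. Each SE of a log2 difference was its absolute value divided by the square root of the test's F statistic. These SE values thus come from the same test as the p-values. Log2 CPM used a prior count of 2. Named genes were DOG1, BRM, the 12 largest differences in each direction among called genes whose mean count reached 20 and whose groups did not overlap, the 3 smallest adjusted p-values of each of 23 gene lists, and genes named by the study. Members and lists were chosen with earlier results of these data known. Gene names and promoters came from RefSeq (TAIR10.1), which matched 10182 of the tested loci; 1 promoter is not reported here. The fit was tested on simulated data. Alternatives, 19 in all, changed the tool (DESeq2 1.42.0), normalization, filter, threshold, depth, libraries or replicate block, and left out each library.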

Additional observations from a re-analysis of the deposited data

Results flagged for a closer look

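Of 210 groups of 4 libraries examined (101 genes in each mutant and 8 library quantities), 20 had 1 library far from the other 3 by Dixon's criterion, which chance alone gives in about 1 of 20 groups. The pollen markers shared 1 library: dog1-4 replicate 3 was the highest for AGP11 (45.6 CPM), VGD1 (81.5 CPM), RALFL8 (79.8 CPM) and the summed pollen markers (250.1 CPM). The same library was also the highest for AT2G43590 (52.9 CPM), ABF2 (14.7 CPM) and GA2OX6 (1.63 CPM, 2 counts, with 0 in the other 3).

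In dog1-4 replicate 2, the shallowest library, UGT75B1 was high (91.6 CPM) and PYL13 low (9.04 CPM), and in dog1-4 replicate 4 AT3G53040 was high (1189 CPM). Among brm-3 libraries, replicate 1 was high for BRM (18.4 CPM) and for the mitochondrial share of counts (0.815%). Replicate 2 was low for SQE6 (202 CPM) and high for CYP78A6 (5.46 CPM) and AFP1 (35.8 CPM). Replicate 3 was high for ST2B (1.79 CPM) and PIN4 (0.597 CPM, 1 count). Replicate 4 was low for AT1G64795 (28.2 CPM) and high for AT4G35110 (9.99 CPM) and CYP77A6 (0.588 CPM, 1 count).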

How the results depend on the processing

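The count of 537 called genes (234 higher in brm-3, 303 higher in dog1-4) was most sensitive to the fold threshold and the filter. With any fold change it was 1684 (823 and 861), when the fold threshold of 1 (log2) was made the null hypothesis of the test it was 108 (61 and 47), and with at least 10 counts in each of the 8 libraries, which leaves fewer genes tested, it was 177 (82 and 95). At equal depth 376 genes were called, 201 of them higher in dog1-4, and with no normalization factors 681, 521 of them higher in dog1-4. In that last fit the median log2 difference of all tested genes was -0.20, against -0.0038 with TMM factors. Why the scaling factors differed between the genotypes was not tested. Leaving out 1 library at a time gave 498 to 589 genes, 229 to 266 higher in brm-3 and 269 to 325 higher in dog1-4. With the replicate block, 536 genes were called (234 and 302), 521 of them shared with the fit without it. Deviations of same-numbered libraries correlated at -0.008, 0.022, 0.072 and -0.011, and only replicate 3 correlated best with its own number. The labels do not say whether same-numbered libraries shared a harvest or a preparation. Of the 26 genes described first (DOG1, BRM and the 12 in each direction), 21 kept their call under every alternative that gave a value. GSTF7 lost it under several, and BRM, GSTF6, RALFL9 and PYL11 under that stricter null hypothesis. No called gene among the named genes changed direction. SBT1.7 and NCED4, which were not called, changed sign, from 0.11 to -0.082 with no normalization factors (and just below 0 without dog1-4 replicate 4) and from -0.052 to 0.067 without dog1-4 replicate 3. Of 30 promoter motif shares, 11 fell outside their 95% interval when only the 250 bases before the start were searched. Among the called genes this was only CACGTG in genes higher in dog1-4 (4.62%, with the interval starting at 4.84%). The others were shares of all tested genes, whose intervals are narrow because 10181 promoters were counted. Low counts, in dog1-4 replicate 2 above all, limit what can be said of genes near the floor.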
